A study of Mus musculus with 7 samples.

Results

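The 10 genes described here encode cytosolic sensors of nucleic acid and the proteins that carry their signal toward type I interferon. They are Mb21d1, Zbp1, Aim2, Ddx58, Ifih1, Tmem173, Mavs, Tbk1, Irf3 and Irf7. They were picked by name from the 23930 genes of the expression table, and all 10 were found in it. The cells were sorted as Pax7-GFP+ from hind leg muscle of C57BL/6 mice carrying a tamoxifen-inducible Pax7-GFP reporter, in which GFP appears in cells that express Pax7, the transcription factor of muscle satellite cells, and remains in their progeny. All mice received tamoxifen from 12 weeks of age and were collected at 16 weeks. Normocapnic mice (NC1 to NC3, n = 3) breathed room air and hypercapnic mice (HC1 to HC4, n = 4) were kept in 10% CO2 for the same 4 weeks. The genotype label counts up from C57BL/6 in NC1 to C57BL/12 in HC4, while the growth protocol names C57/B6 littermates. Per the study's methods, the leg muscles of both groups were injured with cardiotoxin, a snake toxin that destroys myofibers, 3 days before collection. The labels name no injury, and the name of the deposited table gives 40 hours, so that the time point of these libraries is uncertain. The labels do not give the sex of a mouse, and they do not say whether a library is 1 mouse or a pool. The p-values therefore measure the spread between these 7 libraries. The comparison asks how cells from hypercapnic muscle differ from those of normocapnic muscle in the level of these transcripts.

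Foreign or misplaced nucleic acid in the cytosol is recognised by separate receptors for DNA and RNA. The DNA sensor cGAS makes a cyclic dinucleotide that activates STING, while RIG-I and MDA5 bind RNA and activate MAVS on the mitochondrial surface. Both routes reach the kinase TBK1, which phosphorylates the transcription factors IRF3 and IRF7, and these switch on the interferon genes. Secreted interferon then induces a large set of antiviral genes, which includes several sensors and IRF7 itself. In skeletal muscle this set of genes is best known from the inflammatory myopathies.

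Expression was measured by amplicon sequencing (Ion AmpliSeq), in which 1 short product is amplified per gene, and is given as reads per 1000000 reads of the library (RPM). Values of single libraries are listed in the order NC1, NC2, NC3 and then HC1, HC2, HC3, HC4. Amplicons differ in yield, so levels are compared between libraries and not between genes. The libraries held 14527445 to 23388710 reads, and the fewest reads behind any value of the 10 genes were the 51 of Ddx58 in NC3. Differences are in mean log2(RPM + 1), hypercapnia less normocapnia, with their standard error (SE), and this scale understates the change of low genes. A gene was called when limma gave an unadjusted p under 0.05 and a fold above 1.5, the thresholds of the study. No gene of the 23930 passed a Benjamini-Hochberg adjusted p of 0.05 in limma, where 1114 had an unadjusted p under 0.05 and the lowest adjusted p was 0.351. DESeq2 gave 29 such genes and edgeR gave 0. An exact two-sided permutation test over the 35 ways to divide the libraries stands beside each of the 10 genes, and its smallest possible p is 0.0286.

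Libraries of the same group also differed from each other. Xist, the RNA of the inactive X chromosome, stood at 445 to 701 RPM in NC1, NC2, HC1 and HC2 and at 0 to 0.125 RPM in NC3, HC3 and HC4, so that NC3 is the sole normocapnia library without it. The top 10 genes held 16.6% of all reads in NC3, against 8.36% to 12.1% elsewhere. Satellite cell markers were uneven, and Myog in NC3 and Calcr in HC1 were under 3 reads. The 10 satellite cell markers summed to 93.1 to 3442 RPM in normocapnia and 350 to 1148 RPM in hypercapnia, and Pax7 itself was 268, 8.25 and 4.34 RPM in NC1 to NC3 and 20.1 to 79.5 RPM in hypercapnia. Macrophage RNA, which a Pax7-GFP+ gate should leave out, was abundant in every library. The 10 macrophage markers, Lyz2 (8354 to 29108 RPM) among them, summed to 11447 to 33390 RPM in normocapnia and 18733 to 23655 RPM in hypercapnia. C1qa, one of them, was under 3 reads in all 3 normocapnia libraries and in HC3 and HC4. Of the 6 neutrophil markers, Mpo was at 0 in every library and Ly6g was under 3 reads in each. In bulk RNA of sorted cells, fewer cells of a type and less RNA per cell cannot be told apart.

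Of the 10 genes, 9 had the higher mean in hypercapnia and 1, Mb21d1, the lower. Zbp1 was the only gene called, with none called lower, where 2.57% of all genes were called in either direction and 1.43% were called higher. The median difference of the 10 genes was 0.95 (log2), against 0.13 for the 8229 genes that averaged 10 RPM or more. The groups did not overlap, with hypercapnia higher, for 4 of the 10 genes (Zbp1, Ddx58, Tmem173 and Mavs), and this held for 4.96% of those 8229 genes. The lowest library was NC3 for 9 of the 10. Without NC3, none of the 10 was called and their median difference was 0.41. Over genes that averaged 1 RPM or more, the median went from 0.16 with all libraries to -0.07 without NC3.

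**Figure D1:**
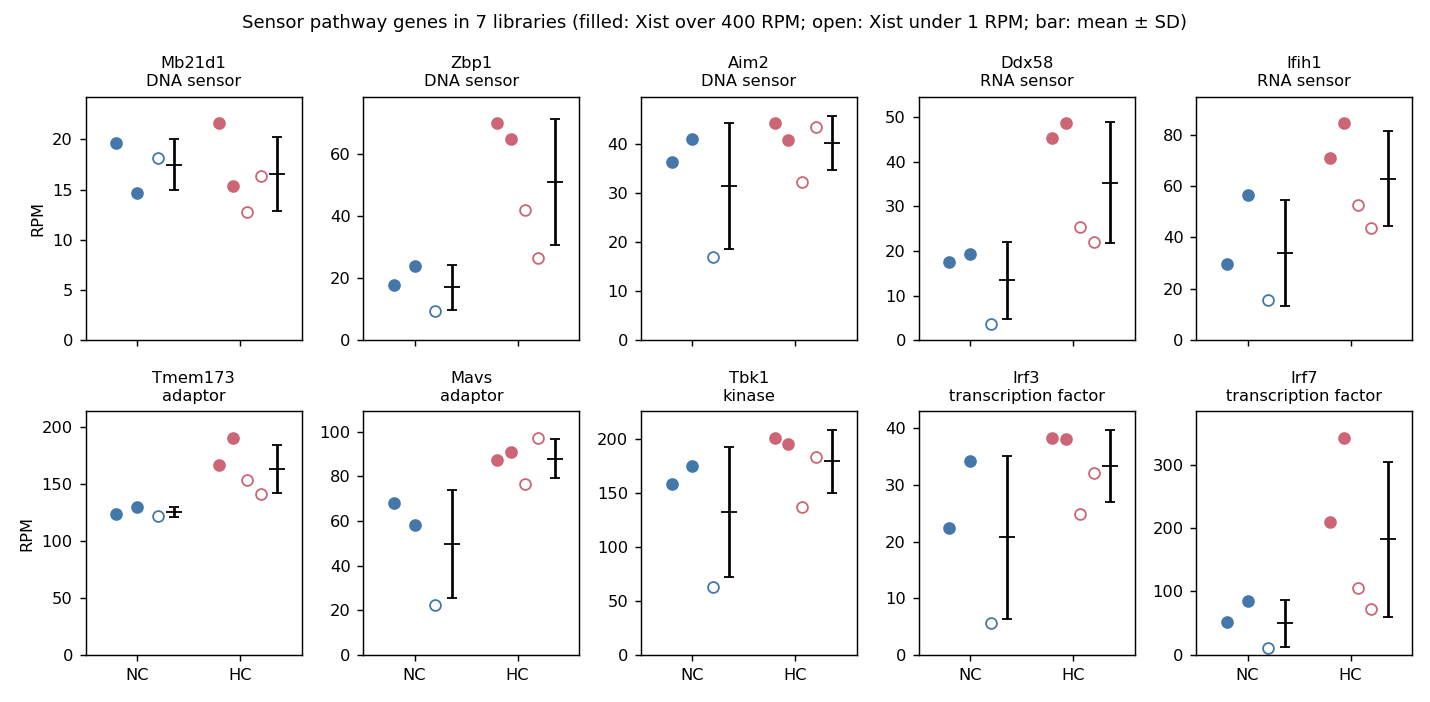
Expression of the 10 genes in RPM (vertical axis, from 0) in 3 normocapnia (NC, blue) and 4 hypercapnia (HC, red) libraries, drawn in the order 1 to 3 and 1 to 4; filled points are libraries with Xist over 400 RPM, open points those under 1 RPM, and black bars are the mean ± SD. In 9 of the 10 panels the open normocapnia point (NC3) is the lowest value.

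Among the sensors of DNA, Mb21d1 encodes cGAS, the enzyme that binds double-stranded DNA. It was 19.6, 14.7 and 18.1 RPM under normocapnia against 21.7, 15.4, 12.8 and 16.3 RPM under hypercapnia. The groups overlapped and no library stood apart. The difference was -0.09 ± 0.19 (SE), with a limma adjusted p of 0.981 (Benjamini-Hochberg) and an exact permutation p of 0.686.

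Zbp1 encodes a receptor for left-handed (Z-form) nucleic acid that can start necroptosis, a lytic cell death, and is itself an interferon-induced gene. Its level was 17.9, 23.9 and 9.29 RPM under normocapnia against 70.2, 65.0, 42.1 and 26.6 RPM under hypercapnia. Every hypercapnia library lay above every normocapnia library, although HC4 lay only just above NC2. The means were 17.0 ± 7.34 RPM (SD, n = 3) and 51.0 ± 20.3 RPM (SD, n = 4). The difference was 1.52 ± 0.46 (SE), a fold of 2.87, with an unadjusted limma p of 0.0191, an adjusted p of 0.915 (Benjamini-Hochberg) and an exact permutation p of 0.0571. Without NC3 the difference was 1.16 and the unadjusted limma p, from a fit over all genes, was 0.058, which ends the call.

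Aim2 encodes a DNA receptor that assembles an inflammasome, the platform that activates caspase-1, in place of inducing interferon. The transcript was at 36.4, 41.0 and 16.9 RPM under normocapnia against 44.3, 40.7, 32.2 and 43.5 RPM under hypercapnia. The groups overlapped, and NC3 was the only low library. The difference was 0.43 ± 0.33 (SE; limma adjusted p of 0.915, Benjamini-Hochberg, and exact permutation p of 0.314), and 0.04 without NC3.

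Of the sensors of RNA, Ddx58 encodes RIG-I, the helicase that recognises RNA ends with a triphosphate. It stood at 17.4, 19.4 and 3.51 RPM under normocapnia against 45.3, 48.8, 25.4 and 21.9 RPM under hypercapnia. The groups did not overlap, and HC1 and HC2 were well above HC3 and HC4. The difference was 1.53 ± 0.64 (SE), with an unadjusted limma p of 0.059, an adjusted p of 0.915 (Benjamini-Hochberg) and an exact permutation p of 0.0286. Its size was close to that of Zbp1 but its SE was larger, and it was not called. Without NC3 the difference was 0.82 (unadjusted limma p of 0.101, from a fit over all genes).

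Ifih1 encodes MDA5, the helicase that recognises long double-stranded RNA. Its values were 29.8, 56.4 and 15.6 RPM under normocapnia against 70.9, 84.7, 52.5 and 43.6 RPM under hypercapnia. HC1 and HC2 lay above all normocapnia libraries, while HC3 and HC4 lay below NC2. The difference was 1.01 ± 0.48 (SE; limma adjusted p of 0.915, Benjamini-Hochberg, and exact permutation p of 0.143), and 0.56 without NC3.

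The sequence near the transcription start of these 2 RNA sensor genes is shown for a motif of interferon-responsive elements. Of the 8 genes that could be searched, they alone matched it. The motif searched was GAAANNGAAA on both strands, which is GAAA repeated after a gap of 2 bases, in RefSeq windows from 250 bases before to 50 after the start (GRCm38.p6). Such a window was at hand for 8 of the 10 genes but not for Zbp1 and Tmem173, which were not searched. Of 32851 windows, 3.44% held a match. The stretch of Ddx58 is chr4:40239804-40239833 and that of Ifih1 is chr2:62646206-62646233. Both genes lie on the minus strand, and both stretches lie at or just past the start. Letters are 5′ to 3′ on the strand of the gene and capitals mark the match, which in Ddx58 reads on the opposite strand.
Ddx58: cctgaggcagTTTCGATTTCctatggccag
Ifih1: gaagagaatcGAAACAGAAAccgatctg
The match began at base 3 of Ddx58 and base 33 of Ifih1, counted from the start. A match is only a likeness of letters, and no binding was measured.

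Of the adaptors, Tmem173 encodes STING, the membrane protein that binds the product of cGAS. Levels were 123, 130 and 122 RPM under normocapnia against 167, 190, 153 and 141 RPM under hypercapnia. The groups did not overlap, and the normocapnia libraries, NC3 included, lay close together. The difference was 0.37 ± 0.11 (SE), with the smallest unadjusted limma p of the 10 genes (0.0147), an adjusted p of 0.897 (Benjamini-Hochberg) and an exact permutation p of 0.0571. Its fold of 1.29 was under the threshold, so that it was not called. Without NC3 the difference was 0.35, the least altered of the genes that were higher.

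Mavs encodes the mitochondrial adaptor of RIG-I and MDA5. Expression was 68.3, 58.2 and 22.5 RPM under normocapnia against 87.3, 90.9, 76.4 and 97.4 RPM under hypercapnia. The groups did not overlap, and Mavs alone of the 10 genes was highest in HC4. The difference was 0.95 ± 0.40 (SE), with an unadjusted limma p of 0.0567, an adjusted p of 0.915 (Benjamini-Hochberg) and an exact permutation p of 0.0286. It was 0.47 without NC3.

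The kinase gene Tbk1, whose product phosphorylates IRF3 and IRF7, was 159, 175 and 63.1 RPM under normocapnia against 202, 196, 138 and 184 RPM under hypercapnia. The groups overlapped, since HC3 lay below NC1 and NC2. The difference was 0.55 ± 0.40 (SE; limma adjusted p of 0.915, Benjamini-Hochberg, and exact permutation p of 0.229), and 0.09 without NC3.

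Irf3 encodes the factor that is present before infection and starts the first wave of interferon. It measured 22.4, 34.2 and 5.58 RPM under normocapnia against 38.4, 38.2, 24.8 and 32.1 RPM under hypercapnia. The groups overlapped and NC3 was low. The difference was 0.95 ± 0.60 (SE; limma adjusted p of 0.915, Benjamini-Hochberg, and exact permutation p of 0.114), and 0.24 without NC3.

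Irf7 encodes the factor that interferon itself induces and that amplifies the response. It was 52.5, 85.3 and 10.9 RPM under normocapnia against 210, 343, 105 and 71.7 RPM under hypercapnia. Only HC4 lay within the normocapnia range. Irf7 had the largest difference of the 10 genes and also the largest SE, 2.01 ± 0.89, with an unadjusted limma p of 0.0673, an adjusted p of 0.915 (Benjamini-Hochberg) and an exact permutation p of 0.0857. Without NC3 the difference was 1.18.

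**Figure D2:**
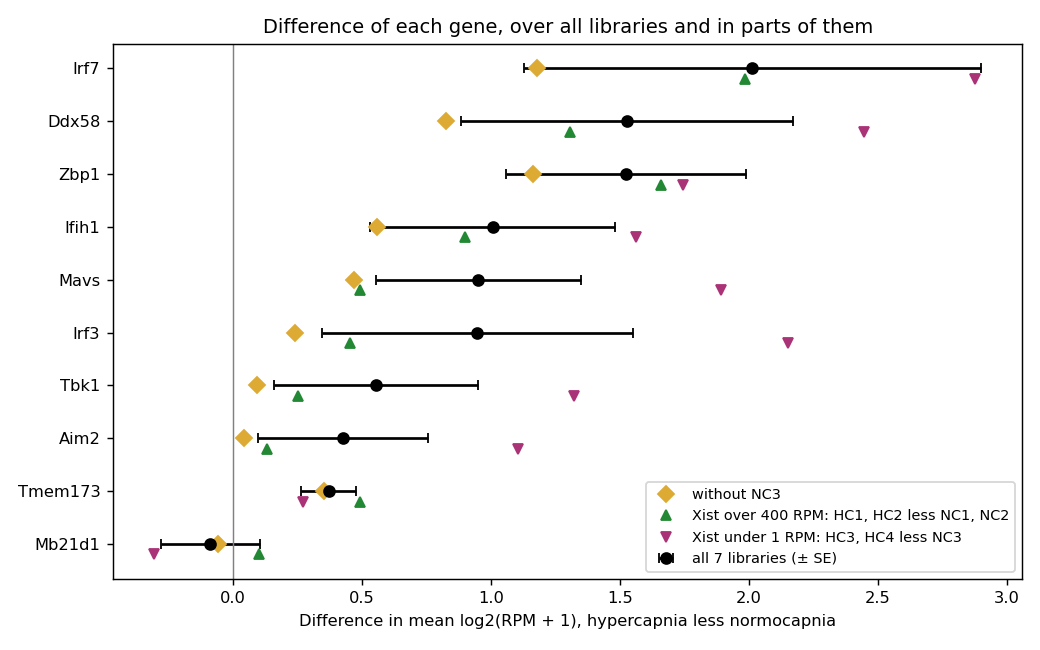
Difference of each of the 10 genes in mean log2(RPM + 1), hypercapnia less normocapnia (horizontal axis), over all 7 libraries (black, ± SE), without NC3 (yellow) and in the libraries with Xist over 400 RPM (green) or under 1 RPM (purple). Tmem173 stays between 0.27 and 0.49 under all 4 choices, while Mavs, Irf3, Tbk1 and Aim2 run from under 0.5 in the libraries with Xist to 1.10 to 2.15 in those without.

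The comparison was repeated in the libraries that share a level of Xist, an alternative chosen after the data were seen. Among NC1, NC2, HC1 and HC2, both hypercapnia libraries were above both normocapnia libraries for 8 of the 10 genes, against 17.6% of the 8229 genes. Zbp1 (1.66), Ddx58 (1.31) and Irf7 (1.99) were called in limma there, with unadjusted p from the fit across all genes of 0.00593, 0.00145 and 0.0306. Of all genes, 1.6% were called higher in that fit. Among NC3, HC3 and HC4, 9 of the 10 genes were higher in both hypercapnia libraries, but so were 64.3% of the 8229 genes. The 8 genes higher in the libraries with Xist were also higher in those without, a pattern that 11.9% of the 8229 genes had. The exceptions were Mb21d1 and Aim2. The difference between the 2 sets of libraries passed an adjusted p of 0.05 for none of the 10 genes in limma, where 5 had an unadjusted p under 0.05. The lowest adjusted p was 0.0682, for Ddx58. The set without Xist has 1 normocapnia library, so that its differences rest on NC3.

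Levels also differed between hypercapnia libraries. For 7 of the 10 genes, HC3 and HC4 were the lowest of the 4, as they were for 28.2% of the 8229 genes, and these are the hypercapnia libraries without Xist. HC3 and HC4 also had more endothelial marker RNA (549 and 418 RPM summed over 6 genes) than HC1 and HC2 (73.4 and 55.7 RPM). The summed markers of satellite cells (1148 and 858 against 400 and 350 RPM) and myofibers (1161 and 2094 against 638 and 345 RPM) were split the same way. So were those of neutrophils (288 and 194 against 112.4 and 78.0 RPM) and dendritic cells (90.3 and 87.5 against 15.2 and 16.1 RPM). The fibro-adipogenic sum was too (1825 and 2230 against 1035 and 935 RPM), but it was carried by Dcn (1050 and 1356 against 188 and 169 RPM). Not every marker of that list was split so, and Col3a1 ran the other way (58.6 and 64.5 against 144 and 96.7 RPM). Within hypercapnia and like the sensor genes, the macrophage markers were mostly higher in HC1 and HC2. Their sum was 23655 and 20141 RPM in HC1 and HC2 against 18733 and 19042 RPM in HC3 and HC4, and 8 of the 10 were higher in both HC1 and HC2 than in HC3 and HC4, all but Lyz2 and Csf1r. Adgre1, singled out after its values were seen, was at 392, 429, 151 and 184 RPM under hypercapnia and from 70.5 to 149 RPM under normocapnia. It was the only 1 of the 10 macrophage markers that was called. The part of these cell types in the levels of the sensor genes was not tested.

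The genes most like Zbp1 were sought among the 8228 others that averaged 10 RPM or more, by the root mean square difference of log2(RPM + 1) over the 7 libraries after each gene was centred on its mean. The closest was Gm12250 (0.195), at 9.90, 13.9 and 7.57 RPM under normocapnia against 44.0, 51.7, 25.2 and 16.8 RPM under hypercapnia. Aif1, a calcium-binding protein of macrophages, was next (0.246), and Pydc4, a gene with a pyrin domain, followed (0.250). Like Zbp1, all 3 were highest in HC1 and HC2 and lowest in NC3.

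The other genes of the pathway were read from 9 lists, of which 111 of 125 genes were in the table. Of the 111, 13 were called higher and 0 lower in limma, with 16 at an unadjusted p under 0.05 in either direction. Of all 23930 genes, 1.43% were called higher and 1114 had such a p. Of the 17 interferon-stimulated genes measured, 10 were called higher and 0 lower, and their median difference was 1.42, against 0.13 for the 8229 genes that averaged 10 RPM or more. Leaving out 1 library gave 7 to 10 called, with 8 without NC3, and quantile normalization gave 7.

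**Figure D3:**
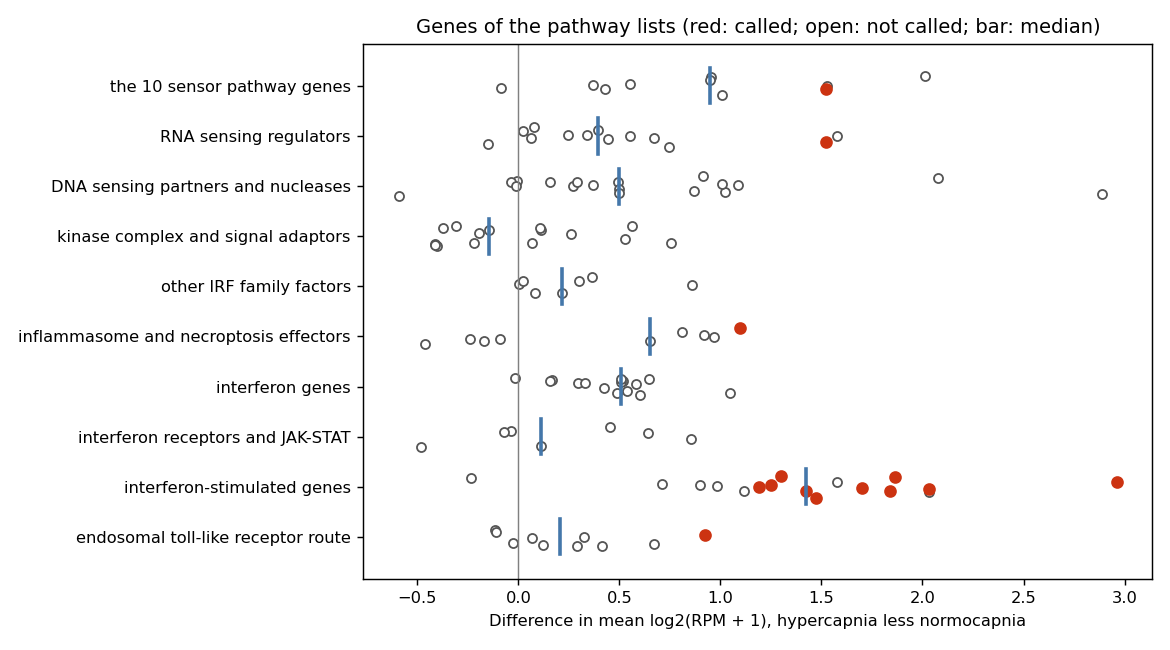
Difference in mean log2(RPM + 1), hypercapnia less normocapnia (horizontal axis), of the 10 sensor pathway genes and of the genes of 9 pathway lists; each point is a gene, red points passed p under 0.05 and a fold above 1.5 in limma, and blue bars are list medians. The interferon-stimulated genes hold 10 of the 13 red points outside the top row, and 16 of its 17 genes lie above 0.

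Ifit1, which encodes a protein that binds foreign RNA caps, had the smallest unadjusted limma p of all the listed genes (0.00206; adjusted p of 0.65, Benjamini-Hochberg). Its level was 9.95, 10.5 and 8.40 RPM under normocapnia against 63.2, 57.7, 37.5 and 23.0 RPM under hypercapnia. The groups did not overlap, and the difference was 2.03 ± 0.37 (SE). Oasl2, a member of the 2-5A synthetase family, was 53.7, 85.6 and 83.2 RPM under normocapnia against 384, 471, 186 and 151 RPM under hypercapnia. The other genes called were Mx1 (1.70), Oas3 (2.96), Rsad2 (1.84), Usp18 (1.47), Cxcl10 (1.30), Ifi44 (1.42), Cmpk2 (1.25) and Rtp4 (1.19). Oas3 was at 0.069 RPM in NC3, which is 1 read.

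The lists closer to the sensors held few called genes. Among 13 regulators of RNA sensing, Ddx60, a helicase that cooperates with RIG-I, was called at 1.52 ± 0.51 (SE), with 11.6, 9.45 and 11.2 RPM under normocapnia against 54.1, 58.0, 22.7 and 15.5 RPM under hypercapnia. No gene of that list was called without NC1, NC3, HC1 or HC2, or with median-of-ratios scaling or quantile normalization, whereas 3 were without NC2 and 5 with Xist as a covariate. Pcbp2, an RNA-binding protein that promotes the breakdown of MAVS, differed by 0.06 ± 0.31 (SE). None of 18 DNA sensing partners and nucleases was called in limma, with 0 at an unadjusted p under 0.05. The count was 2 without NC1, 3 higher and 1 lower without NC2, 2 without NC3, 1 without HC4, 2 with DESeq2, 5 with Xist as a covariate and 4 in the libraries with Xist. Of those 18, Ifi203, a DNA-binding protein of the AIM2-like family, had the smallest p, at 35.9, 44.6 and 1.31 RPM under normocapnia against 172, 174, 66.7 and 87.7 RPM under hypercapnia (2.89 ± 1.17, SE). Reads of the AIM2-like family may be shared between near-identical copies. Banf1, which encodes a chromatin-binding protein, differed by 0.29.

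None of 15 genes of the kinase complex and signal adaptors was called, and 2 had an unadjusted limma p under 0.05. Without NC1, 2 were called lower, and without NC2, 3 were called higher. Of all 23930 genes, 495 were called lower without NC1 and 671 higher without NC2. Traf6, an E3 ubiquitin ligase, was 90.8, 75.9 and 95.2 RPM under normocapnia against 60.5, 58.7, 69.7 and 73.7 RPM under hypercapnia. Its difference of -0.40 ± 0.12 (SE) was under the fold threshold, with an unadjusted limma p of 0.016 from the fit over all genes. The list had a median of -0.15, and Map3k7, a kinase upstream of NF-κB, differed by 0.07. Among the 7 other IRF factors, 0 were called and 0 had an unadjusted p under 0.05 in limma, but 2 were called higher without NC2. Irf9, a partner of STAT proteins, and Irf8, a factor of myeloid cells, differed by 0.36 and 0.86.

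In 9 inflammasome and necroptosis genes measured, those downstream of Aim2 and Zbp1, Il18 was called at 1.10 ± 0.42 (SE) and 0 were called lower. Il18, a cytokine that caspase-1 matures, was 23.8, 16.5 and 39.99 RPM under normocapnia against 68.7, 83.0, 43.4 and 36.5 RPM under hypercapnia. No gene of that list was called without NC1, HC1, HC2 or HC3, by DESeq2 or edgeR, or with median-of-ratios scaling or quantile normalization, whereas 3 were without NC2 and 2 with Xist as a covariate or in the libraries with Xist. Il1b, an inflammatory cytokine that caspase-1 also matures, ranged from 210 to 2243 RPM in normocapnia and from 244 to 1776 RPM in hypercapnia, with a difference of -0.17. The 7 receptor and JAK-STAT genes held 0 called genes and 0 at an unadjusted p under 0.05 in limma. The count was 2 without NC2 and 1 without HC3, without HC4, with the replicate number added or with Xist as a covariate. Il10rb, a receptor chain for interferon lambda, differed by 0.86. In the endosomal route, which senses nucleic acid from outside the cytosol, Tlr9, the receptor for DNA rich in CpG, was called at 0.92 ± 0.31 (SE), alone of 10 genes. None of the 10 was called without HC2 or HC3, by DESeq2, by edgeR with a filter or with median-of-ratios scaling, and 2 were without NC2. Unc93b1, which carries these receptors to the endosome, differed by 0.67.

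The 15 interferon genes measured were scarce. Only 2 of them, Ifnb1 and Ifna2, reached a mean of 1 RPM, and none was called or had an unadjusted p under 0.05 in limma. DESeq2 called 4 of them higher, edgeR without a filter 3 and edgeR with a filter 0. Over all genes, these fits called 519, 407 and 294 higher. Ifnb1, the interferon that fibroblasts and macrophages make first, was 0.535, 1.58 and 0.138 RPM under normocapnia against 0.942, 1.11, 2.69 and 8.06 RPM under hypercapnia. Ifnl3, an interferon lambda, was at 0 to 0.043 RPM in normocapnia and 0.086, 0.1, 1.56 and 1.08 RPM in hypercapnia. The 15 genes summed to 2.44 to 4.24 RPM in normocapnia and to 4.07, 2.46, 8.50 and 45.0 RPM in HC1 to HC4. The interferon alpha genes are near-identical copies whose reads may be shared. HC4, with the most interferon RNA, had the lowest Irf7 and Zbp1 of the hypercapnia libraries. The 6 dendritic cell markers summed to 99.7, 17.5 and 24.7 RPM in normocapnia and 15.2, 16.1, 90.3 and 87.5 RPM in hypercapnia, highest in NC1. Of the 6, 4 were highest in NC1, 1 in HC3 and 1 in HC4. The last is Siglech, named after its values were seen, at 33.6 RPM. HC4 also had the largest share of olfactory receptor (Olfr) genes at 3 reads or more, genes with no known role in muscle, at 91.8% of 1057, against 6.81% to 83.3% in the other libraries. The part of dendritic cells or of such scattered reads in the interferon values was not tested.

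**Figure D4:**
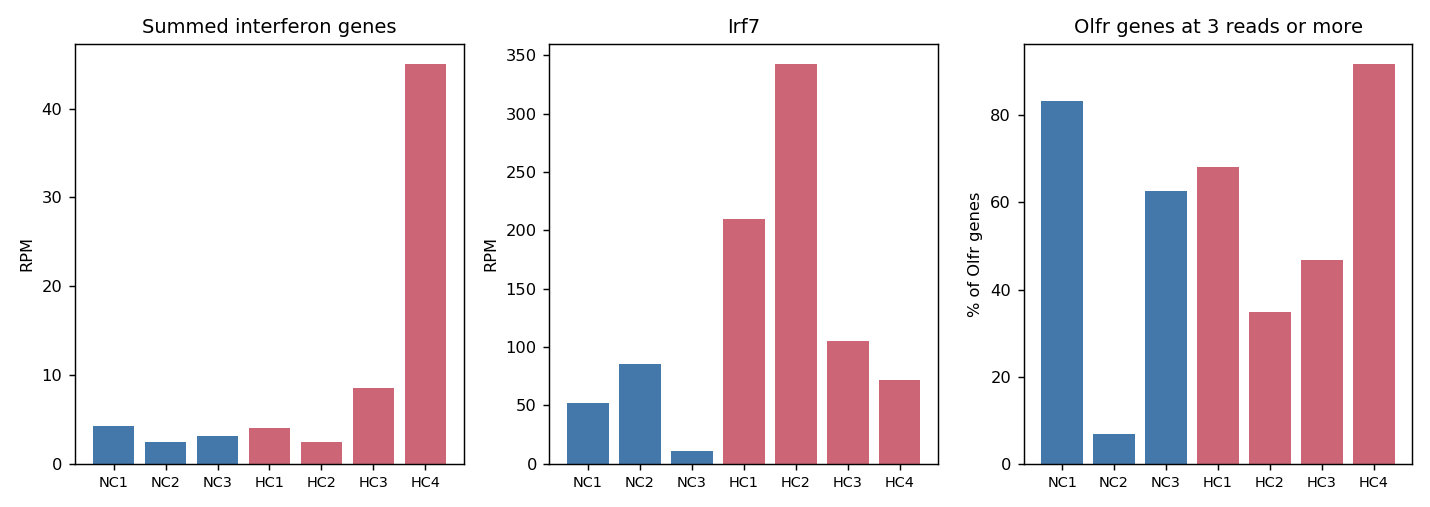
Per library, the summed level of 15 interferon genes in RPM, the level of Irf7 in RPM, and the share of 1057 Olfr genes at 3 reads or more, in percent (vertical axes, all from 0; blue, normocapnia; red, hypercapnia). The interferon sum is highest in HC4 (45.0 RPM), where Irf7 (71.7 RPM) is the lowest of the hypercapnia libraries and the Olfr share (91.8%) the highest.

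The calls of the 10 genes varied with the handling of the data. Zbp1 was called in 18 of 19 alternatives, with differences of 1.16 to 1.80. Among the 19, the fit with the replicate number added and the fit without HC4 share the same differences. Ddx58 and Mavs were called in 9 each, Irf7 in 8, Ifih1 in 3 and Irf3 in 1. Mb21d1, Aim2, Tmem173 and Tbk1 were called in none of the 19.

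**Figure D5:**
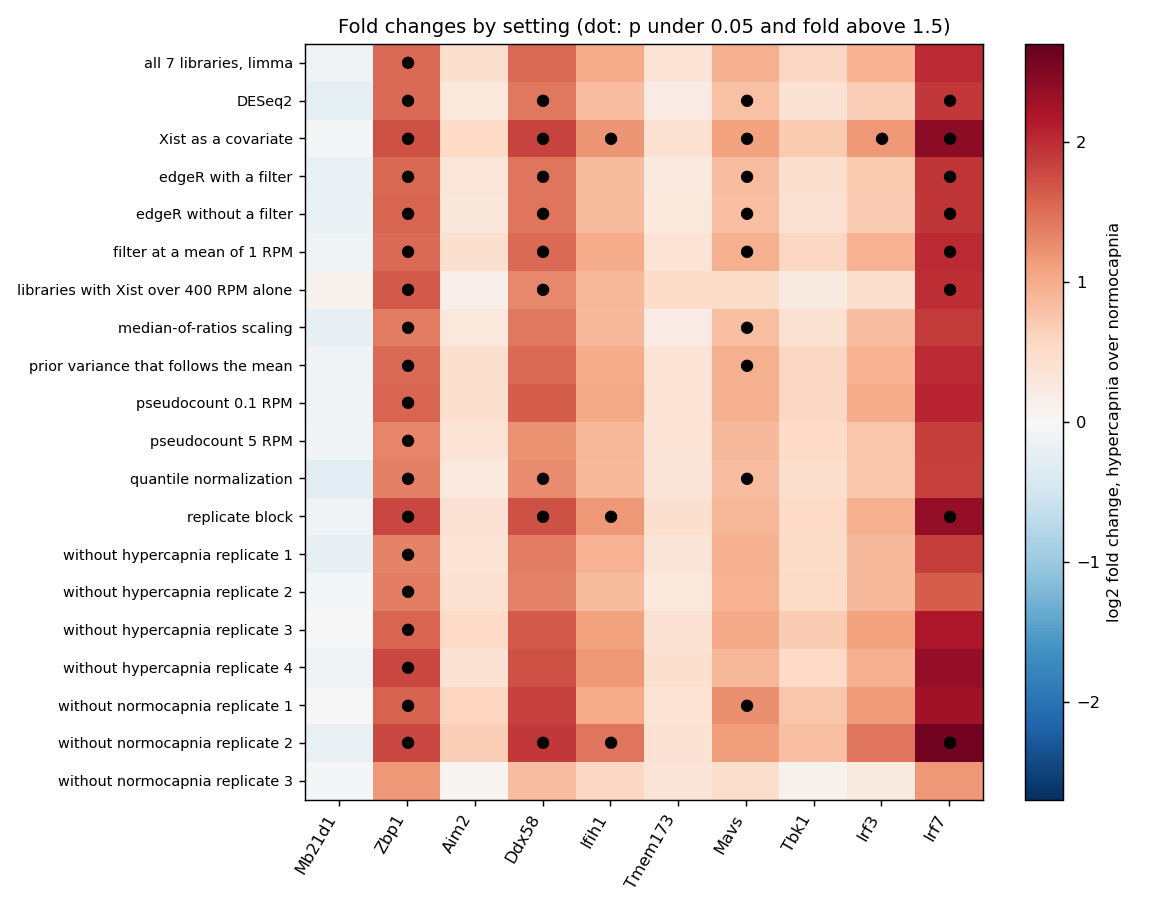
Log2 fold change of the 10 genes (columns; colour scale, hypercapnia over normocapnia) in the fit to all 7 libraries and in 19 alternatives (rows); a dot marks p under 0.05 and a fold above 1.5. The Zbp1 column holds a dot in every row but the one without normocapnia replicate 3, where no gene has one.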

How the data were processed

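RNA from sorted Pax7-GFP+ cells of mice under normocapnia (3 libraries) or hypercapnia (4 libraries) was extracted with TRIzol, and libraries were made on an Ion Chef with the Ion AmpliSeq mouse transcriptome panel and sequenced on an Ion GeneStudio S5 Plus. The authors deposited 1 table of RPM values, 23930 genes by 7 libraries. No source used here names the aligner or the genome build, and the submitters' processing notes name the Transcriptome Analysis Console. Whole reads were recovered from the RPM steps, with 100% of values within 0.05 of a whole read. The libraries held 14527445 to 23388710 reads, so that 3 reads are 0.128 to 0.207 RPM, and this floor covers counting error only.

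Differences were fitted with limma 3.58.1 (R 4.3.3) to log2(RPM + 1) of every gene, with neither filter nor covariate. edgeR 4.0.16 and DESeq2 1.42.0 were run on the recovered reads as alternatives. Other alternatives changed the pseudocount, filter, scaling and variance prior, added Xist or the replicate number, or left out each library. Groups come from the treatment labels. Gene names were matched to RefSeq by symbol or synonym. All 10 sensor pathway genes are named with every value. From each pathway list, called genes and those with the smallest p and the highest mean are named, with the 3 genes most like Zbp1 and at most 3 markers of a list by mean RPM. Pax7, Calcr, Csf1r, C1qa, Mpo and Ly6g were named as markers after their values were seen. Other named genes are said to be chosen later, and Ifna2 is named as 1 of the 2 over 1 RPM. The genes and lists were chosen with earlier results of these data known. The genes of the lists beyond the 111 were not analysed here.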

Additional observations from a re-analysis of the deposited data

Results flagged for a closer look

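For Ifi203 a test set the libraries with Xist against those without. The difference between hypercapnia and normocapnia was 2.09 in the 4 libraries with Xist and 5.07 in the 3 without, and the gap of 2.98 ± 0.30 (SE) had an adjusted p of 0.0429 in limma (Benjamini-Hochberg over all genes). It rests on NC3, the only normocapnia library without Xist, where Ifi203 was at 1.31 RPM. With no replicate there, the test assumes that NC3 varies like the other libraries, and no difference between the sets is claimed from it.

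Usp18, which encodes a protease that removes ISG15, had 1 hypercapnia library far from the other 3. HC4 was at 11.2 RPM, against 23.1, 25.1 and 22.5 RPM in HC1 to HC3. The gap was 0.863 of the whole range on the log2(RPM + 1) scale. Chance alone would mark about 1 group in 20. The same screen was run on the hypercapnia values of every sensor pathway gene. It also covered the called, smallest-p and highest-mean genes of each pathway list, and only Usp18 was marked. Among that many genes, 1 mark is no more than chance would give, and nothing is claimed from it.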

How the results depend on the processing

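Of 190 values (10 genes under 19 alternatives), 157 kept their direction and side of the threshold, 30 passed it newly, 1 lost it and 2 turned. Those that turned were both of Mb21d1, at 0.019 without HC3 (-0.22 to 0.019 over the Mb21d1 values that leave out 1 library) and 0.10 in the libraries with Xist over 400 RPM. The count of the 10 genes called higher, 1 in the fit to all libraries, was 4 with DESeq2, 4 with edgeR with a filter and 4 without, 4 with a filter at a mean of 1 RPM, 6 with Xist as a covariate, 2 with median-of-ratios scaling, 2 with a prior variance that follows the mean, 3 with quantile normalization and 3 in the libraries with Xist over 400 RPM. Leaving out 1 library gave 0 to 4, namely 2 without NC1, 4 without NC2 and 0 without NC3. Of all 23930 genes, 343 were called higher in the fit to all libraries. That number was 1495, 671 and 235 without NC1, NC2 and NC3, and 814 with Xist as a covariate. It was 315 with median-of-ratios scaling, 329 with the prior variance that follows the mean and 336 with quantile normalization. With the filter at a mean of 1 RPM it was 345 of the 12504 genes kept. It was 351 with the replicate block and 407 with edgeR without a filter. The count of other pathway genes called higher, 13, was 27 with Xist as a covariate and 20 with edgeR without a filter, and 8 to 28 with 1 library left out: 8 without HC1 or HC2 and 28 without NC2. The count called lower, 0, ran from 0 to 2, with 2 without NC1 and 1 without NC2. For these other counts that moved, the cause was not tested. The replicate numbers did not pair the libraries, as the correlations of same-numbered deviations were -0.35, 0.50 and -0.04. Not every library correlated best with its own number. With the replicate block, 4 of the 10 genes were called (Zbp1, Ddx58, Ifih1 and Irf7), with 19 other pathway genes. HC4 is the only library numbered 4, so that the block takes it up and the differences are those without HC4. With HC4 left out, the difference of Zbp1 was likewise 1.79, and Zbp1 alone of the 10 was called. Over genes that averaged 1 RPM or more the median difference was 0.16 as deposited, 0.04 after scaling by median of ratios and -0.01 after quantile normalization. The 10 genes had medians of 0.95, 0.82 and 0.78 there, and 9 of them were higher in each. In the fit to all libraries 272 of all genes were called lower. Higher and lower calls were 294 and 508 with edgeR and a filter, 519 and 785 with DESeq2, and 383 and 632 in the libraries with Xist over 400 RPM. With 3 and 4 libraries and NC3 apart, differences of genes that vary as Irf7 does are poorly resolved.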

Other observations

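The ratio of Irf7 to Irf3, the interferon-induced factor over the one present beforehand, was computed after the values were seen. It was 2.34, 2.49 and 1.96 under normocapnia against 5.46, 8.97, 4.23 and 2.23 under hypercapnia. NC3, in which 9 of the 10 genes were lowest, had a ratio near those of NC1 and NC2. HC1, HC2 and HC3 lay above all normocapnia libraries and HC4 lay among them. The ratio is of reads from different amplicons, and it can be compared only between libraries.

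The ratio of Tmem173 to Tbk1 was 0.775, 0.741 and 1.93 under normocapnia against 0.826, 0.972, 1.11 and 0.767 under hypercapnia. NC3 alone stood apart, since Tmem173 was level across normocapnia while Tbk1 was low in NC3.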
